A study of Mus musculus with 8 samples.

Results

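Interferon-stimulated genes are described here in bulk RNA sequencing of mouse heart. The 41 genes were fixed by name and read from the rows of the deposited count table that carry their symbols, and all 41 were found among its 27304 genes. They form 2 classes: 33 targets of type I interferon, and 8 GTPases known for their induction by interferon gamma (4 of the GBP family and 4 of the IRG family). Many type I targets also respond to interferon gamma, so the classes are labels for the leading signal and do not exclude each other. The hearts came from male mice of the inbred strain 129/Sv. Of the libraries, 4 are labelled healthy, from the standard diet (control 1 to control 4). Another 4 are labelled as chronic kidney disease, from a diet with 0.15% adenine (adenine 1 to adenine 4). Each diet lasted 13 weeks. Dietary adenine injures the renal tubules, and the labels report raised plasma creatinine and urea, tubular damage and kidney fibrosis in the mice fed it. The series' title concerns oxidative stress responses of the heart in chronic kidney disease. The labels give no ages, and the design text speaks of samples analysed without replicates. Whether the 4 libraries of a diet are separate animals is thus not stated, and every p-value rests on the spread between libraries, part or all of which may be technical. Values by library are listed in the order control 1 to control 4 and adenine 1 to adenine 4.

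Interferons are secreted alarm proteins of antiviral defence. Type I interferons act through the receptor chains encoded by Ifnar1 and Ifnar2 and the kinases TYK2 and JAK1, and factors that include STAT2 and IRF9 then bind the interferon-stimulated response element (ISRE) in promoters. Interferon gamma acts through Ifngr1, Ifngr2 and the kinases JAK1 and JAK2, and its promoter element is the gamma-activated site (GAS). The products of the target genes sense foreign nucleic acid, block viral RNA and protein synthesis, modify proteins and attack the membranes around intracellular pathogens, and many are present at a low tonic level in unstimulated tissue.

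Total counts per library were 15626620 to 33886385, and levels are given as CPM, read counts scaled for library size with TMM factors. The cardiomyocyte markers (8 of 8 in the table, led by Myh6) summed to 43550 to 55770 CPM in the controls, to 42670 to 50810 CPM in adenine 1, adenine 2 and adenine 4, and to 29120 CPM in adenine 3, as the label of heart tissue has it. Myh6 had 7094 CPM in adenine 3, against 15483 to 20491 CPM in the controls. Tnnt2 and Pln in adenine 3 lay within the range of the controls, and the remaining cardiomyocyte markers lay below it. Adenine 3 stood apart: its 12 macrophage markers summed to 2848 CPM, whereas the same sum ran from 351 to 536 CPM across adenine 1, adenine 2 and adenine 4 and from 436 to 759 CPM across the controls. Most of the sum in adenine 3 was Lyz2, with 2065 CPM there and 146 to 310 CPM in the other libraries. Cd163 in adenine 3 lay within the range of the controls, and each other marker was highest in adenine 3. The main counts and many single values are therefore also given without adenine 3, and the part of macrophage RNA in the interferon genes was not tested. In bulk tissue, fewer cells of a type and less RNA per cell cannot be told apart.

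In 3 of the 4 adenine libraries most interferon-stimulated genes lay below every control, and in adenine 3 about as many lay above every control as did not. Of the 41 genes, 28 were below all 4 controls in adenine 1 (68.3%, against 20.5% of all 20093 genes tested), 24 in adenine 2 (58.5%, against 28.7%) and 24 in adenine 4 (58.5%, against 20.6%). In adenine 3, 7 were below (17.1%, against 26.4%) and 21 above all 4 controls (51.2%, against 20.4%). Above the controls lay 2, 1 and 0 of the 41 in adenine 1, adenine 2 and adenine 4 (4.88%, 2.44% and 0%, against 21.0%, 43.1% and 33.8% of all genes). Adenine 3 was the highest adenine library for 34 of the 41 genes (82.9%, against 26.5% of all genes).

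**Figure D1:**
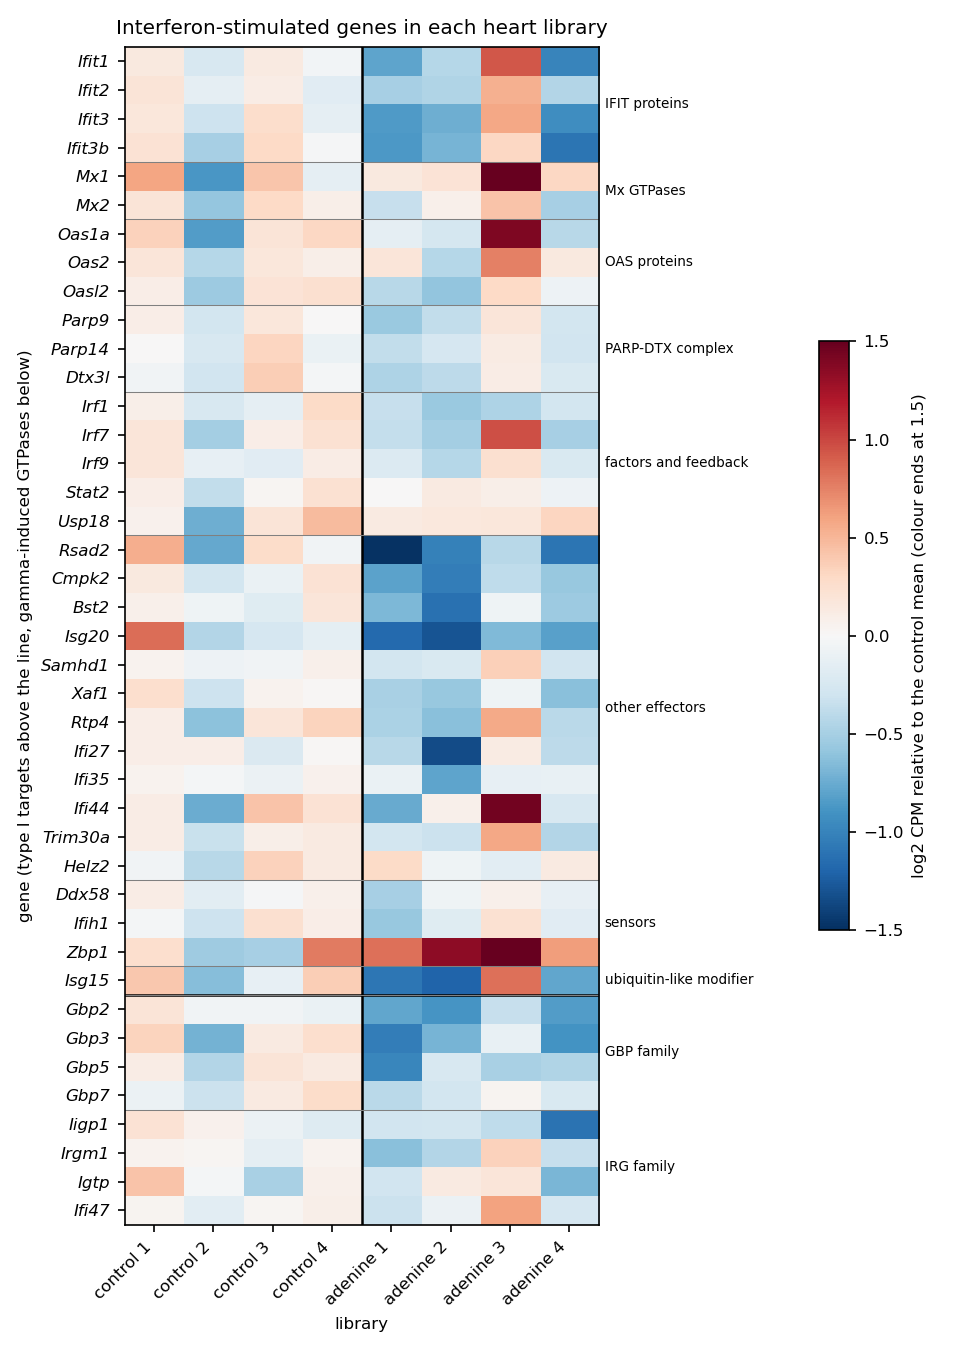
Level of each of the 41 genes (rows, grouped by role) in each library (columns), as log2 CPM relative to the mean of the 4 controls, where blue is lower and red is higher. Adenine 1, adenine 2 and adenine 4 are mostly blue, adenine 3 is mostly red for the IFIT, OAS and Mx genes, and control 2 is the lowest control for 28 of the 33 type I targets.

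All 41 genes had enough reads to be tested. None was called in either direction by edgeR's quasi-likelihood test at an adjusted p under 0.05, where 8 genes of the whole table were higher (0.0398%) and 0 lower (0%). Expressed as adenine minus control, the log2 fold change was negative for 31 of the 41 (75.6%, against 45.8% of all genes tested), with a median of -0.18 over the members and 0.05 over all genes. At an unadjusted p under 0.05, 10 members were lower (24.4%, against 6.63% of all genes) and 1, Zbp1, was higher (2.44%, against 10.9%). The diets did not overlap for 6 members in the lower direction (14.6%, against 3.84% of all genes) and for 0 in the higher (0%, against 3.45%). DESeq2's Wald test called 2 members lower, Isg20 and Rsad2, and 0 higher, where it called 0.797% of the genes it tested lower and 0.629% higher. limma-voom called 0 members.

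Without adenine 3, 37 of the 41 log2 fold changes were negative (90.2%, against 48% of the same 20093 genes), and the median was -0.39, against 0.03 over those genes. At an unadjusted p under 0.05, 22 members were then lower (53.7%, against 9.90% of all genes) and 1 higher (2.44%, against 18.9%). 21 did not overlap in the lower direction (51.2%, against 8.14%) and 0 in the higher (0%, against 12.7%). Gbp2 and Rsad2 passed the adjusted threshold in edgeR in that fit, both lower, where 0.144% of all genes were called lower and 0.178% higher. Each library was left out in turn, and this omission is set out because of values already seen, so it is a description.

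**Figure D2:**
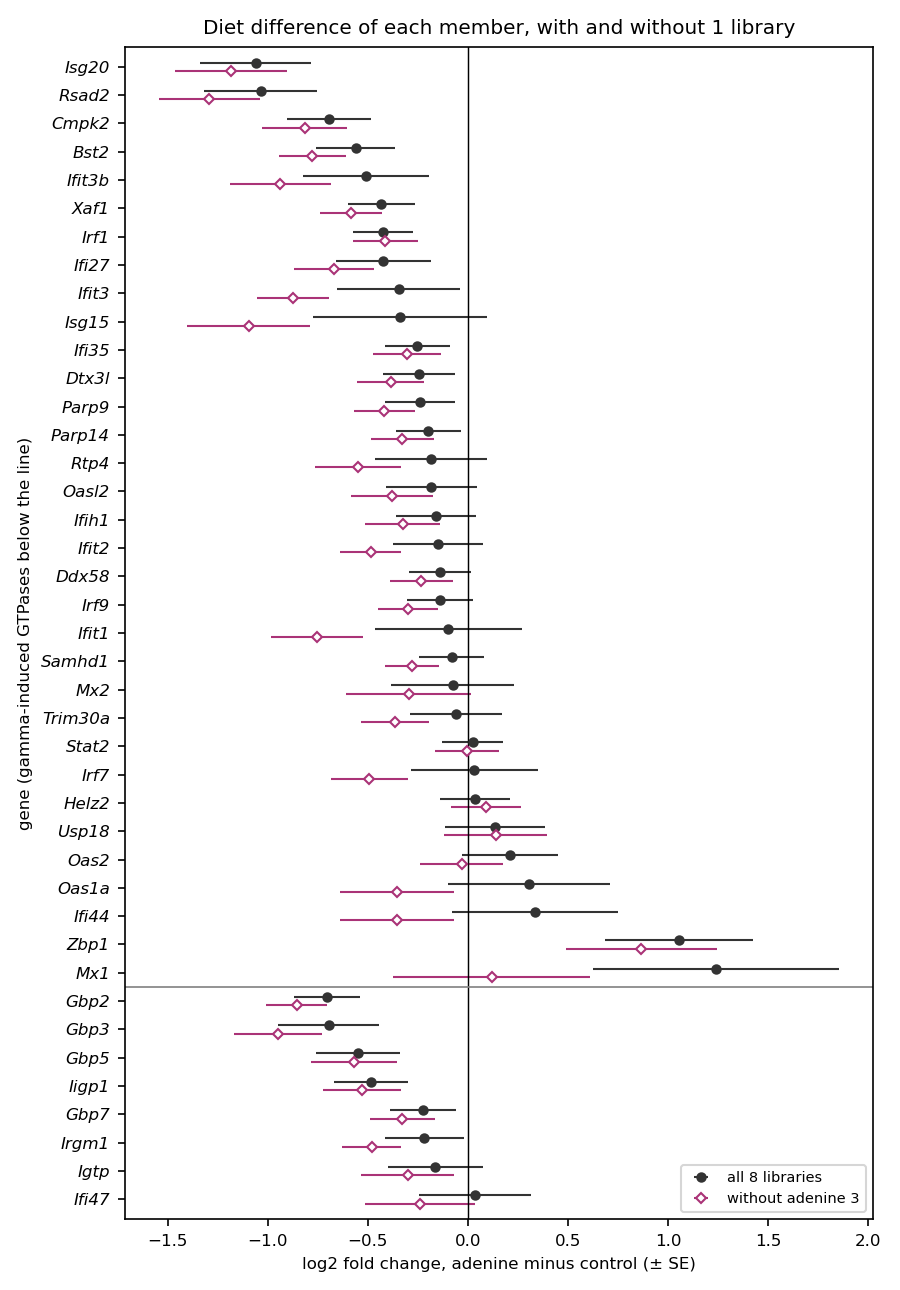
Log2 fold change of each gene with its standard error, from all 8 libraries (filled circles) and without adenine 3 (open diamonds). Most open diamonds lie to the left of the filled circles, by the largest distance for Mx1, Isg15, Ifi44, Oas1a and Ifit1, while Isg20, Rsad2, Cmpk2 and the GBP genes lie to the left of 0 in both fits.

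Averaged over genes, both classes were below the control mean in adenine 1, adenine 2 and adenine 4. The mean log2 CPM of the type I targets relative to the control mean was 0.18, -0.39, 0.09 and 0.12 in the controls, and -0.41, -0.42, 0.40 and -0.35 in the adenine libraries. The same mean of the gamma-induced GTPases was 0.16, -0.20, -0.03 and 0.07 in the controls and -0.59, -0.34, -0.02 and -0.60 in the adenine libraries. For type I targets, control 2 lay with the 3 low adenine libraries and adenine 3 lay above every control. For the GTPases, adenine 3 lay within the controls and the other adenine libraries lay below all 4. Adenine 3 exceeded all controls for 19 of 33 type I targets and 2 of 8 GTPases (57.6% and 25.0%, against 20.4% of all genes). Median log2 fold changes were -0.16 for the type I targets and -0.35 for the GTPases, and -0.38 and -0.50 without adenine 3. The difference between the classes was not tested.

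**Figure D3:**
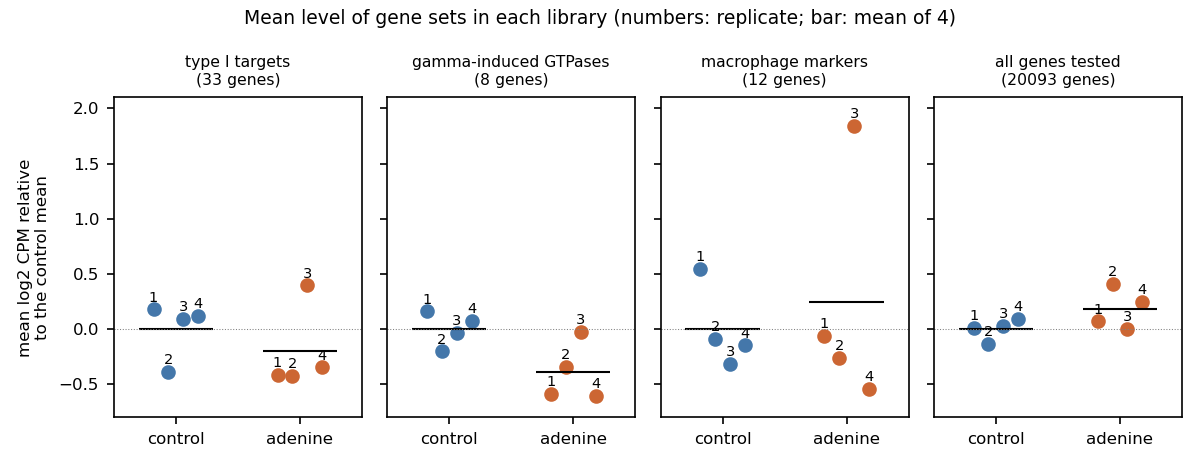
Mean log2 CPM of a gene set relative to the control mean (vertical axis) in each control and adenine library (numbered points), with the mean of 4 as a bar. Adenine 3 is the highest adenine library for both interferon classes and the macrophage markers but not over all genes, and control 2 is the lowest control for both interferon classes.

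Control 2 was the lowest control library for 32 of the 41 genes (78.0%, against 35.7% of all genes tested), 28 of them type I targets. Its total count was the largest of the 8 libraries and its TMM factor the smallest. Without control 2 the median log2 fold change of the members was -0.26, and 0 members were called in edgeR.

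The promoters of the members were searched for the motifs of the 2 pathways. RefSeq promoter windows (GRCm38.p6, 250 bases before to 50 after an annotated start) were at hand for 31 of the 41 genes, and Usp18, Zbp1, Oas2, Mx1, Mx2, Parp9, Parp14, Rtp4, Ifi27 and Iigp1 had no entry. The ISRE core, sought on both strands as GAAA, 2 bases of any kind and GAAA again, was in 17 of the 31 (54.8%), against 3.99% of 27025 genes with a window. It was in 11 of 24 type I targets (45.8%) and 6 of 7 GTPases (85.7%). The GAS core TTCNNNGAA, which reads the same on both strands, was in 10 of 31 (32.3%), against 9.55% of all genes with a window. A match is a description of letters and not a shown binding site.

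Windows are printed for the 2 members of each class with an ISRE core and the lowest p for the diet. Capitals mark ISRE and GAS cores, positions count from the annotated start, and each sequence runs 5′ to 3′ on the strand of the gene. In Rsad2 (chr12:26456403-26456702, minus strand) the ISRE core starts at position -120. Bst2 (chr8:71537423-71537722, minus strand) has ISRE cores at -130 and -124 that overlap each other and a GAS core at -136 that overlaps the first. Gbp2 (chr3:142620413-142620712, plus strand) has an ISRE core at -59, and Gbp3 (chr3:142559794-142560093, plus strand) has overlapping ones at -45 and -39.
Rsad2: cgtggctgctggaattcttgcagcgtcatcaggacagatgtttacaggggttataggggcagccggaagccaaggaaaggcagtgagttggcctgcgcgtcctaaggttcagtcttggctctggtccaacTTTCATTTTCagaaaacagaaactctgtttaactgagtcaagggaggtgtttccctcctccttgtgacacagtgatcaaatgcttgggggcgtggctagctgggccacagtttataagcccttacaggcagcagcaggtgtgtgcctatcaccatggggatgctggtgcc
Bst2: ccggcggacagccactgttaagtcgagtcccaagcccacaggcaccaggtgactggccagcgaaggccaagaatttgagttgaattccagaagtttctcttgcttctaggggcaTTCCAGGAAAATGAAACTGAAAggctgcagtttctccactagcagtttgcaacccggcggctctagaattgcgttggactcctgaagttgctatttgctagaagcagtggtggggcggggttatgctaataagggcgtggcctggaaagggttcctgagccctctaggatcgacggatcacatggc
Gbp2: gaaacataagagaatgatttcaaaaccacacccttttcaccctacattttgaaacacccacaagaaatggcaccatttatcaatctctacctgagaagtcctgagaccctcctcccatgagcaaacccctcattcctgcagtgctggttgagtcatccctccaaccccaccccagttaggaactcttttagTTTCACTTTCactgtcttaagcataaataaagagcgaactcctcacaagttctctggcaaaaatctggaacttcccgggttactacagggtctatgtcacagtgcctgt
Gbp3: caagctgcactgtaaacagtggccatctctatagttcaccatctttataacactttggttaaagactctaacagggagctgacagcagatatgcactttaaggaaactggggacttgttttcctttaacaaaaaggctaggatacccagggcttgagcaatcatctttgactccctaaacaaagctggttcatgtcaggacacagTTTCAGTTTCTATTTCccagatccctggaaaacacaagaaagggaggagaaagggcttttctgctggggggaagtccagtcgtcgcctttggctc

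Shorter stretches, each a core in capitals with 5 bases on either side, show how the motifs compare between relatives. Ifit3 and Ifit3b, neighbouring copies on chromosome 19, carry the same letters at each of their ISRE cores, with starts at -156 and -122 in Ifit3 (window chr19:34583279-34583578, plus strand) and at -188 and -154 in Ifit3b (window chr19:34607707-34608006, plus strand). Igtp, an IRG gene (window chr11:58199306-58199605, plus strand), has an ISRE core at -34 beside a GAS core at -45, and in Irf1 the window chr11:53769764-53770063 (plus strand) holds a GAS core at -90 and no match to the ISRE letters.
Ifit3 (-156): gtaagTTTCACTTTCctctt
Ifit3b (-188): gtaagTTTCACTTTCctctt
Ifit3 (-122): gtctgTTTCAGTTTCtactt
Ifit3b (-154): gtctgTTTCAGTTTCtactt
Igtp (-34): gaactGAAACTGAAAgctgt
Igtp (-45): gccatTTCTAGGAActgaa
Irf1 (-90): ctgatTTCCCCGAAatgat

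**Figure D4:**
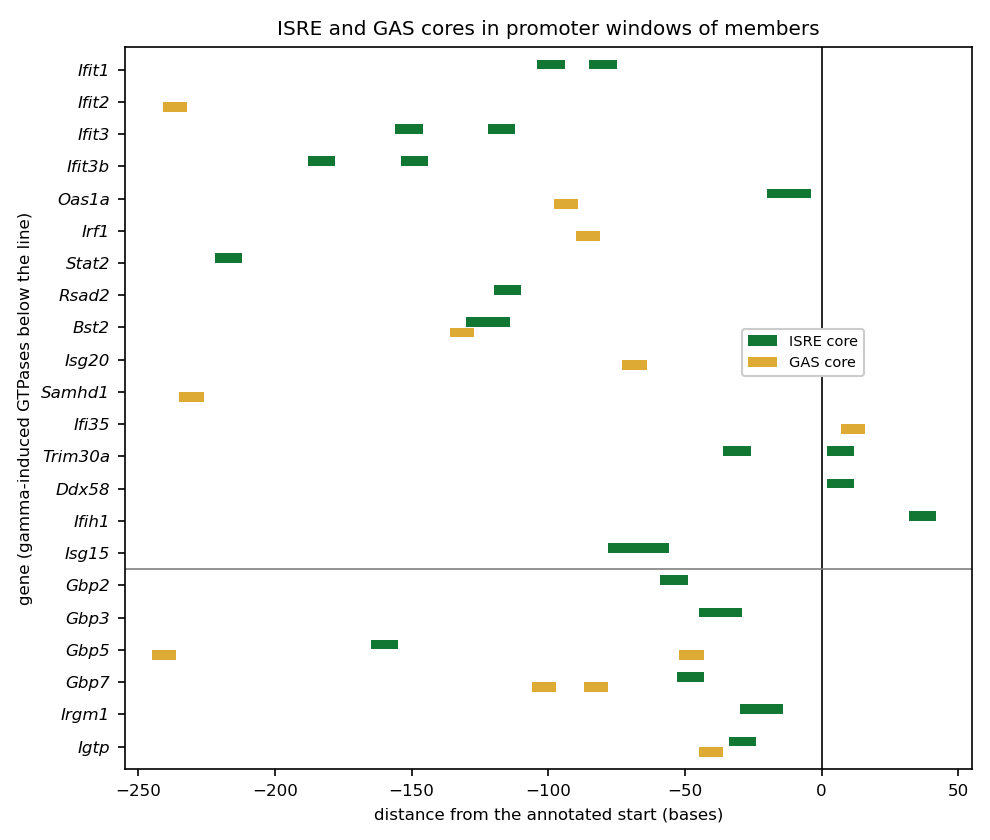
Distance of ISRE cores (green) and GAS cores (yellow) from the annotated start, in bases, for the 22 members with at least 1 match. Starts of ISRE cores run from -222 in Stat2 to 33 in Ifih1. Gbp2, Gbp3, Gbp7, Irgm1 and Igtp have theirs from -59 to -24, while that of Gbp5 is at -165.

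Interferon ligands had few reads. The 21 ligand genes together summed to 2.68 to 5.5 CPM in the controls and 3.53 to 11.3 CPM in the adenine libraries, with the lowest adenine value in adenine 3 and the highest in adenine 2. 7 of the 21 passed the filter, 6 of them with a positive and 1 with a negative log2 fold change (14.3% negative, against 45.8% of all genes). With so few reads, a ligand can pass through the diet in which it is higher. Ifna13 may have done so, with 4, 7, 9 and 12 reads in the controls and 10, 7, 17 and 17 in the adenine libraries. The signs among the 7 are thus no result about the ligands, and 0 of the 7 were called in edgeR or DESeq2. At an unadjusted p under 0.05, 1 was higher (14.3%, against 10.9% of all genes). The lowest p belonged to Ifnl2, a type III interferon, with 1.44 (SE 0.57) and an adjusted p of 0.266 (edgeR), followed by Ifna4 with 1.08 (SE 0.57). Ifng and Ifnb1 did not pass the filter, and Ifng had 0.129 to 0.169 CPM in the controls and at most 0.55 CPM in the adenine libraries.

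Among the receptor genes, Ifngr2, a chain of the gamma receptor, had 107, 133, 113 and 68 CPM in the controls, and 59.2, 63.8, 80.8 and 61.1 CPM in the adenine libraries, where adenine 3 alone exceeded control 4. Its log2 fold change was -0.67 (SE 0.20), with an adjusted p of 0.216 (edgeR), and -0.79 without adenine 3. Ifngr2 had the lowest p of the receptor and kinase genes listed, and DESeq2 did not call it either.

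Among transcription factors and feedback genes, only Irf1 separated the diets. Irf1 is an early activator that also responds to interferon gamma, and it is counted here among the type I targets. It had 22.3, 17.8, 19.1 and 25.8 CPM in the controls, and 16.5, 14.3, 15.2 and 17.3 CPM in the adenine libraries, and every adenine library lay below every control. The log2 fold change of Irf1 was -0.42 (SE 0.15) with an adjusted p of 0.249 (edgeR), and -0.41 without adenine 3. Irf7, the factor that amplifies type I interferon production, had 12, 7.35, 11.3 and 12.3 CPM in the controls, and 8.2, 7.4, 20.7 and 7.4 CPM in the adenine libraries: adenine 3 was above every control, and adenine 1, adenine 2 and adenine 4 lay between control 2 and the other controls. Irf7 had a log2 fold change of 0.03 (SE 0.32), and -0.49 without adenine 3. Stat2, with the highest mean CPM of this group, had 21, 15.2, 20.1 and 23.1 CPM in the controls, and 19.8, 21.5, 20.9 and 18.7 CPM in the adenine libraries, and every adenine value lay within the range of the controls, with a log2 fold change of 0.02 (SE 0.15). Irf9, the DNA-binding partner of STAT2, had -0.14 (SE 0.17), and Usp18, which removes ISG15 and restrains the type I receptor, had 0.14 (SE 0.25). With 1 library left out, Irf9 ran from -0.30 without adenine 3 to -0.058 without adenine 2 and Usp18 from -0.061 without control 2 to 0.30 without control 4.

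The sensors differed among themselves. Zbp1, a sensor of Z-form nucleic acid that triggers necroptosis, had 1.74, 0.982, 1.01 and 2.56 CPM in the controls, and 2.64, 3.79, 4.36 and 2.28 CPM in the adenine libraries, at 27 to 137 reads per library. The adenine libraries were the higher group, with an overlap only because control 4 exceeded adenine 4. The log2 fold change of Zbp1 was 1.05 (SE 0.37) with an adjusted p of 0.246 (edgeR), and 0.87 without adenine 3. Ddx58, which encodes the RNA sensor RIG-I, had 16.5, 13.8, 15.1 and 16.1 CPM in the controls, and 10.8, 14.7, 16.2 and 14.1 CPM in the adenine libraries and a log2 fold change of -0.14 (SE 0.15). Ifih1, which encodes the RNA sensor MDA5, had -0.16 (SE 0.20), and neither passed. With 1 library left out, Ddx58 ran from -0.23 without adenine 3 to -0.046 without adenine 1 and Ifih1 from -0.33 without adenine 3 to -0.047 without adenine 1.

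IFIT proteins bind viral RNA and hinder its translation. Ifit2, the IFIT gene with the highest mean CPM, had 18.4, 14.7, 17.4 and 14.3 CPM in the controls, and 11.4, 11.7, 23.3 and 11.8 CPM in the adenine libraries, and Ifit3 had 13.9, 9.89, 14.8 and 11.2 CPM in the controls, and 6.8, 7.34, 18.4 and 6.39 CPM in the adenine libraries. In both, adenine 1, adenine 2 and adenine 4 lay below every control and adenine 3 lay above every control. Ifit1 had 6.35, 4.81, 6.26 and 5.54 CPM in the controls, and 3.28, 4.22, 11 and 2.84 CPM in the adenine libraries, with the same arrangement. The log2 fold changes were -0.10 (SE 0.37) for Ifit1, -0.15 (SE 0.23) for Ifit2, -0.35 (SE 0.31) for Ifit3 and -0.51 (SE 0.31) for Ifit3b, with adjusted p-values of 0.368 to 0.886 (edgeR). Without adenine 3 they were -0.76, -0.49, -0.87 and -0.94, with adjusted p-values of 0.0503 to 0.0839, none past the threshold. The 4 genes lie in 1 cluster on chromosome 19 (GRCm38, from 34550694 for Ifit2 to 34650009 for Ifit1). Of the 50-base stretches in Ifit3 transcripts, 51.2% also stand in Ifit3b, so the counting could have split their reads.

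OAS proteins make the second messenger that activates RNase L, and Mx proteins are dynamin-like GTPases that trap viral nucleoproteins. Mx1 had 1.06, 0.339, 0.931 and 0.612 CPM in the controls, and 0.76, 0.795, 4.46 and 0.86 CPM in the adenine libraries, where adenine 3 stood alone above the controls, on 140 reads against 10 to 33 in every other library. The log2 fold change of Mx1 was 1.24 (SE 0.62), and 0.12 without adenine 3. Oas1a had 5.64, 2.44, 5.07 and 5.5 CPM in the controls, and 4.04, 3.67, 11.8 and 3.29 CPM in the adenine libraries, with adenine 3 above and the other adenine libraries within the range of the controls. Its log2 fold change was 0.30 (SE 0.40), and -0.35 without adenine 3, and 57.6% of the 50-base stretches in its transcripts also stand in Oas1g. Oasl2, an OAS-like protein and the most abundant of these genes, had 11, 7.01, 11.8 and 12.1 CPM in the controls, and 7.68, 6.79, 12.6 and 9.72 CPM in the adenine libraries and a log2 fold change of -0.18 (SE 0.23). Oas2 had 8.83, 5.76, 8.76 and 8.26 CPM in the controls, and 8.84, 5.75, 13.2 and 8.6 CPM in the adenine libraries, where control 2 was far below the other controls, and its log2 fold change was 0.21 (SE 0.24), and -0.03 without adenine 3. Mx2 had 3.06, 1.76, 3.28 and 2.83 CPM in the controls, and 2.08, 2.81, 3.6 and 1.87 CPM in the adenine libraries, with overlapping diets, and its log2 fold change was -0.08 (SE 0.31), and -0.30 without adenine 3. Oasl2 ran, as single libraries were left out, from -0.38 without adenine 3 to -0.067 without adenine 2. None of these 5 genes passed.

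Isg15, the ubiquitin-like protein that is attached to other proteins after interferon, had 5.51, 2.64, 3.8 and 5.39 CPM in the controls, and 1.92, 1.77, 7.45 and 2.39 CPM in the adenine libraries. Adenine 1, adenine 2 and adenine 4 lay below every control, and adenine 3 above every control. The log2 fold change of Isg15 was -0.34 (SE 0.43), and -1.10 (SE 0.31, edgeR adjusted p = 0.0732) without adenine 3 and -0.12 without adenine 1. Ube2l6, the conjugating enzyme of ISG15 and no member of the 41, had 62.7, 23.8, 25.7 and 22.1 CPM in the controls, and 13, 11.3, 21.3 and 8.6 CPM in the adenine libraries, without overlap. The log2 fold change of Ube2l6 was -1.31 (SE 0.35) with an adjusted p of 0.187 in edgeR and 0.0271 in DESeq2, and without adenine 3 it was -1.63 with an adjusted p of 0.0387 in edgeR. Control 1 was far above the other controls in Ube2l6.

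Among the remaining effectors, Isg20, Rsad2 and Cmpk2 had the lowest p. Isg20, an exonuclease that degrades RNA, had 17.7, 7.25, 8.23 and 8.91 CPM in the controls, and 4.36, 3.97, 6.18 and 5.57 CPM in the adenine libraries. All adenine libraries lay below all controls, and control 1 stood above the other controls. Its means were 10.5 ± 4.82 and 5.02 ± 1.03 CPM (SD, n = 4 per diet), and its log2 fold change was -1.06 (SE 0.28) with an adjusted p of 0.183 in edgeR and 0.0337 in DESeq2. Without control 1 the log2 fold change of Isg20 was -0.69.

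Rsad2, which encodes the radical enzyme viperin, had 20.6, 8.2, 17 and 13.6 CPM in the controls, and 4.96, 6.91, 10.5 and 6.5 CPM in the adenine libraries, and control 2 was the one control within the adenine range. The means of Rsad2 were 14.8 ± 5.27 and 7.21 ± 2.33 CPM (SD, n = 4 per diet), and its log2 fold change was -1.04 (SE 0.28) with an adjusted p of 0.199 in edgeR and 0.0425 in DESeq2. Without adenine 3 it was -1.29 (SE 0.25) with an adjusted p of 0.0429 (edgeR), and without control 1 it was -0.84. Cmpk2, a mitochondrial nucleotide kinase, is the neighbour of Rsad2 on chromosome 12 (GRCm38, 26442746 to 26456452 for Rsad2 and 26469204 to 26479837 for Cmpk2, on opposite strands). Cmpk2 had 8.06, 5.96, 6.78 and 8.45 CPM in the controls, and 4.12, 3.49, 5.54 and 4.86 CPM in the adenine libraries, without overlap between the diets. Its log2 fold change was -0.69 (SE 0.21), with an adjusted p of 0.222 (edgeR), and -0.82 without adenine 3 and -0.59 without adenine 2.

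The other effectors had smaller log2 fold changes. Bst2, which encodes tetherin and ties budding virus to the cell, had 22.5, 20.5, 18.8 and 24.3 CPM in the controls, and 13.4, 9.78, 20.4 and 14.6 CPM in the adenine libraries, and adenine 3 lay among the controls. Bst2 had a log2 fold change of -0.56 (SE 0.20) and an adjusted p of 0.249 (edgeR), and ran from -0.78 without adenine 3 to -0.415 without adenine 2. Ifi27, with the highest mean CPM of all 41 genes, had 50.5, 50.8, 40.9 and 48 CPM in the controls, and 35.3, 18.6, 51.6 and 36 CPM in the adenine libraries, where adenine 2 was lowest and adenine 3 highest, with a log2 fold change of -0.42 (SE 0.24). Xaf1, a pro-apoptotic gene, had -0.43 (SE 0.17). Ifi35 had 24.6, 23.1, 22.2 and 24.7 CPM in the controls, and 22, 13.6, 21.6 and 21.9 CPM in the adenine libraries, without overlap, although control 3 and adenine 1 nearly touched and adenine 2 was far below the rest, and a log2 fold change of -0.25 (SE 0.16). Samhd1, which depletes nucleotides, had 38.1, 35, 35.5 and 38.8 CPM in the controls, and 30.3, 31.3, 47.4 and 30.2 CPM in the adenine libraries: adenine 3 was above and the other adenine libraries below every control. Ifi44 had 5.45, 2.98, 6.82 and 5.89 CPM in the controls, and 2.96, 5.32, 13.9 and 4.26 CPM in the adenine libraries, and only adenine 3 exceeded the controls. Trim30a, of the tripartite-motif family, had 11.2, 8.23, 11 and 11.4 CPM in the controls, and 8.6, 8.25, 15.5 and 7.66 CPM in the adenine libraries, with control 2 low among the controls and adenine 3 above them all. The log2 fold changes were -0.08 (SE 0.16) for Samhd1, 0.33 (SE 0.42) for Ifi44, -0.19 (SE 0.28) for Rtp4, -0.06 (SE 0.23) for Trim30a and 0.03 (SE 0.17) for Helz2, and none passed. Without adenine 3, the value was -0.28 for Samhd1, -0.36 for Ifi44, -0.55 for Rtp4 and -0.37 for Trim30a. With 1 library left out, Ifi27 ran from -0.67 without adenine 3 to -0.21 without adenine 2, Ifi35 from -0.31 without adenine 1 to -0.11 without adenine 2 and Rtp4 from -0.55 without adenine 3 to -0.060 without adenine 2.

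PARP9 and DTX3L form a complex that modifies histones, and PARP14 is a related ADP-ribosyltransferase. Parp9 had 21.3, 16.4, 22.4 and 19.9 CPM in the controls, and 13.5, 15.3, 22.4 and 16.4 CPM in the adenine libraries, and Parp14, the most abundant of the 3, had 25.1, 21.1, 31.3 and 23.4 CPM in the controls, and 19.3, 21, 27.2 and 20.5 CPM in the adenine libraries. In Parp14, adenine 1, adenine 2 and adenine 4 lay below every control. In Parp9, adenine 1 and adenine 2 did, and adenine 4 was level with control 2. Adenine 3 lay within the controls of Parp14 and just above those of Parp9. The log2 fold changes of Parp9, Parp14 and Dtx3l were -0.24 (SE 0.17), -0.20 (SE 0.16) and -0.24 (SE 0.18). With 1 library left out they ran from -0.42 without adenine 3 to -0.15 without adenine 1 for Parp9, from -0.33 without adenine 3 to -0.058 without control 3 for Parp14 and from -0.39 without adenine 3 to -0.086 without control 3 for Dtx3l. Exons of Parp9 and Dtx3l share 458 bases on opposite strands. No source used here says whether reads were counted by strand, so reads from that stretch may belong to either gene. The same holds for Ifi35, whose exons share 290 bases with the antisense gene Gm11626.

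**Figure D5:**
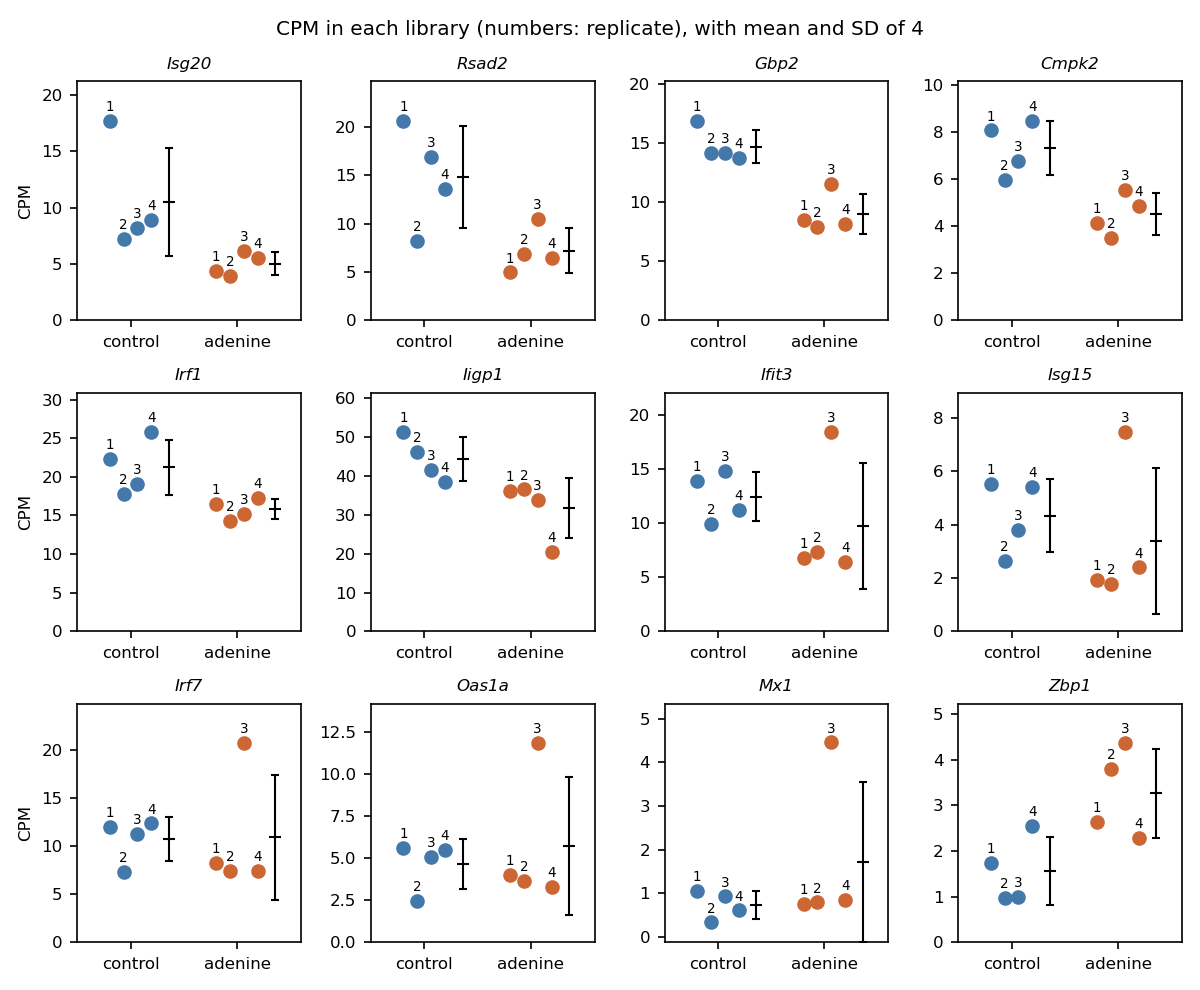
CPM of 12 members in each control and adenine library (points, numbered by replicate), with the mean and SD of 4 libraries beside them; the lower arm for Mx1 runs below 0. Isg20, Gbp2, Cmpk2, Irf1 and Iigp1 do not overlap between the diets, whereas in Ifit3, Isg15, Irf7, Oas1a and Mx1 adenine 3 lies above every control.

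Guanylate-binding proteins coat the membranes of pathogen vacuoles, and all 4 GBP genes among the 41 had negative log2 fold changes with and without adenine 3. GBP genes outside the 41 went both ways, as given below. Gbp2 (ENSMUSG00000028270, chromosome 3, 142620602 to 142638008 on GRCm38) had 16.9, 14.2, 14.2 and 13.7 CPM in the controls, and 8.52, 7.89, 11.5 and 8.15 CPM in the adenine libraries. All adenine libraries lay below all controls, and adenine 3 was the nearest to them. The means of Gbp2 were 14.7 ± 1.44 and 9.02 ± 1.69 CPM (SD, n = 4 per diet), and its log2 fold change was -0.70 (SE 0.16) with an adjusted p of 0.147 in edgeR and 0.0679 in DESeq2. Without adenine 3 it was -0.86 (SE 0.15) with an adjusted p of 0.0263 (edgeR), and without adenine 4 it was -0.64. Gbp2 had the lowest p of the 41 genes in the fit of all 8 libraries.

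Gbp3 had 17.2, 8.33, 15 and 16.3 CPM in the controls, and 6.64, 8.38, 12.7 and 7.29 CPM in the adenine libraries, and control 2 lay within the adenine range. Gbp5, which also promotes inflammasome assembly, had 9.32, 6.34, 9.87 and 9.52 CPM in the controls, and 4.36, 7.28, 6.11 and 6.28 CPM in the adenine libraries, and again only control 2 overlapped the adenine libraries. Gbp7, the most abundant of the 4 in CPM, had 15.7, 13.3, 18.4 and 20.3 CPM in the controls, and 12.6, 13.8, 17.2 and 14.2 CPM in the adenine libraries, with broader overlap. The log2 fold changes were -0.69 (SE 0.25) for Gbp3, -0.55 (SE 0.21) for Gbp5 and -0.22 (SE 0.16) for Gbp7, with adjusted p-values of 0.251, 0.263 and 0.431 (edgeR). The value of Gbp7 ran, as single libraries were left out, from -0.33 without adenine 3 to -0.13 without control 4. That of Gbp3 ran from -0.95 without adenine 3 to -0.58 without adenine 1, and that of Gbp5 from -0.68 without control 2 to -0.435 without adenine 1. These genes lie in 1 cluster with Gbp2 on chromosome 3, and 12.7% of the 50-base stretches of Gbp7 transcripts stand in another gene, most of them in the pseudogene Gm43802.

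Immunity-related GTPases disrupt pathogen vacuoles and, in the case of the IRGM subgroup (Irgm1 and Igtp), restrain the other members. Iigp1, the most abundant GTPase here, had 51.3, 46.2, 41.5 and 38.5 CPM in the controls, and 36.2, 36.6, 33.9 and 20.4 CPM in the adenine libraries, and every adenine library lay below every control, with the lowest in adenine 4. The log2 fold change of Iigp1 was -0.48 (SE 0.19) with an adjusted p of 0.263 (edgeR), and -0.53 without adenine 3. Irgm1 had 16.2, 16, 14.3 and 16.2 CPM in the controls, and 10.1, 11.6, 19.8 and 12.3 CPM in the adenine libraries, where adenine 3 was above and the other adenine libraries below the controls. Igtp had 11.9, 8.61, 6.26 and 9.29 CPM in the controls, and 7.2, 9.66, 9.93 and 5.42 CPM in the adenine libraries, with overlapping diets, and Ifi47 had 2.8, 2.44, 2.79 and 2.9 CPM in the controls, and 2.16, 2.57, 4.17 and 2.28 CPM in the adenine libraries, at 42 to 131 reads per library. Their log2 fold changes were -0.22 (SE 0.20), -0.16 (SE 0.24) and 0.04 (SE 0.28), and none passed. With 1 library left out, Iigp1 ran from -0.56 without adenine 1 to -0.31 without adenine 4, Irgm1 from -0.48 without adenine 3 to -0.10 without adenine 1, Igtp from -0.30 without adenine 3 to -0.001 without adenine 4 and Ifi47 from -0.24 without adenine 3 to 0.15 without adenine 1. Exons of Igtp overlap Irgm2 and exons of Ifi47 overlap Olfr56 on the same strand, and such reads could have been left out or assigned to either gene.

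Levels between genes were compared per kilobase (kb) of merged exons. Ifi27 was highest in the controls with 32.4 ± 3.15 CPM per kb (SD, n = 4), followed by Bst2 with 23.8 ± 2.65, Ifi35 with 13.7 ± 0.692 and Iigp1 with 7.62 ± 0.961 CPM per kb. The means of these 4 lay more than their SDs apart, whereas Iigp1 and the next gene, Ifit3, with 7.13 ± 1.31 CPM per kb, did not. Mx1 was lowest with 0.195 ± 0.0861, below Zbp1 with 0.446 ± 0.212 and Mx2 with 0.756 ± 0.186 CPM per kb. In the adenine libraries Ifi27, Bst2 and Ifi35 kept the first 3 places, with 24.1 ± 9.20, 16.1 ± 4.89 and 11.5 ± 2.38 CPM per kb, and there the mean of Bst2 lay within 1 SD of that of Ifi27. Mx1 stayed last, with 0.454 ± 0.483 CPM per kb.

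A list of 43 further interferon-induced genes was split. 25 had negative and 18 positive log2 fold changes, with a median of -0.09. edgeR called 0 of them, and DESeq2 called 1, Ube2l6, lower. At an unadjusted p under 0.05, 8 genes (18.6%, against 6.63% of all genes) were lower, and 6 (14.0%, against 10.9%) were higher. Ifi207, a DNA-binding protein of the interferon-inducible p200 family, had 15.3, 16.1, 10.2 and 13.2 CPM in the controls, and 29.8, 21.5, 36 and 19.3 CPM in the adenine libraries, without overlap and higher on adenine. Its log2 fold change was 0.96 (SE 0.21) with an adjusted p of 0.134 in edgeR. Gbp9, a guanylate-binding protein, had 23.4, 18.4, 28 and 24.7 CPM in the controls, and 15.2, 12.9, 17.4 and 14.8 CPM in the adenine libraries, without overlap and lower on adenine, with -0.65 (SE 0.16) and an adjusted p of 0.163 (edgeR). Of the other GBP genes on that list, Gbp4 was negative at -0.55 (SE 0.21). Positive were Gbp6 at 0.60 (SE 0.23), Gbp8 at 0.35 (SE 0.40), Gbp10 at 0.70 (SE 0.32) and Gbp11 at 0.34 (SE 0.36).

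Genes that induce interferon or restrain its signal gave no call either. Of 14 inducing factors and sensors, 8 had positive log2 fold changes and 0 were called in edgeR or DESeq2. With the unadjusted threshold 2 were higher (14.3%, against 10.9% of all genes) and 0 lower (0%, against 6.63%). Irf5, a macrophage-rich factor, had 6.29, 4.1, 5.44 and 6.19 CPM in the controls, and 6.6, 8.8, 19.5 and 5.23 CPM in the adenine libraries, and Tlr7, an endosomal RNA receptor, had 2.87, 2.0, 1.94 and 1.41 CPM in the controls, and 2.6, 1.9, 14.2 and 2.47 CPM in the adenine libraries: in both, adenine 3 exceeded every other library. Their log2 fold changes were 0.87 (SE 0.35) and 1.38 (SE 0.56), and 0.30 and 0.17 without adenine 3. Of 10 tested negative regulators (1 of them, Samhd1, also among the 41), 0 were called in edgeR or DESeq2, and with the unadjusted threshold 1 was higher (10%, against 10.9% of all genes) and 2 were lower (20%, against 6.63%). Rnaseh2c, a subunit of a nuclease that removes RNA from DNA, had -0.41 (SE 0.14), and Socs1, the feedback inhibitor of JAK kinases, had 3.74, 2.68, 1.9 and 3.29 CPM in the controls, and 1.6, 2.08, 1.11 and 1.79 CPM in the adenine libraries and -0.83 (SE 0.32).

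Markers of other cell types are set beside these values. With all 8 libraries, 10 of 12 macrophage markers had positive log2 fold changes, with a median of 0.43, and 2 were higher at an unadjusted p under 0.05 (16.7%, against 10.9% of all genes). Without adenine 3, 11 of the 12 were negative, with a median of -0.29, and edgeR called 0 in either fit. Of 8 endothelial markers, 7 were negative in both fits (87.5%, against 45.8% and 48% of all genes), with medians of -0.37 and -0.38. At an unadjusted p under 0.05 with all 8 libraries, 4 were lower (50%, against 6.63% of all genes). Flt1 alone was higher (12.5%, against 10.9%), at 0.46 (SE 0.20). edgeR called 0 of the 8 markers in either fit, and DESeq2 called 1, Tek, lower with all 8 libraries (against 0.797% of all genes it tested). The medians of the 41 genes were -0.18 and -0.39. The sum of the 8 endothelial markers lay between 758 and 877 CPM on the standard diet and between 570.2 and 782 CPM on adenine. The lowest sum was in adenine 3, which was the highest adenine library for 34 of the 41 genes. Control 1, with the largest macrophage sum of the controls (759 CPM), was the highest control for 15 of the 41 genes (36.6%, against 17.2% of all genes). Control 4, with 445.5 CPM, was also the highest control for 15 (36.6%, against 29.7%). Control 2, lowest for most type I targets, had 479.5 CPM, within the range of control 3 to control 1. Control 1 was highest in Isg20, Rsad2 and Ube2l6. Adenine 3, with 2848 CPM of macrophage markers, lay below every control in Isg20 and Ube2l6. In Rsad2 it had 10.5 CPM, above control 2 at 8.2 CPM, and in all 3 genes it was the highest adenine library. Siglech, which marks plasmacytoid dendritic cells, had 2.35 to 4.17 CPM in the controls and 1.53 to 3.49 CPM in the adenine libraries. The 8 markers of that cell type summed to 1766 to 2092 CPM in the controls and 1351 to 1814 CPM in the adenine libraries, and most of that sum was Cox6a2, which striated muscle also expresses. The part of any cell type in the interferon genes was not tested.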

How the data were processed

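The authors deposited raw read counts per gene, whole numbers without scaling, and per the submitters' processing notes used FastQC 0.11.9, STAR 2.7.6a and GRCm38.p6, a C57BL/6J reference, for reads of 129/Sv mice. Per the labels' protocols, snap-frozen hearts gave RNA by peqGOLD TriFast and NEBNext Ultra libraries. No source used here names the counting program, the annotation or the strand setting.

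Tests used edgeR 4.0.16 under R 4.3.3, with its default low-count filter by diet, TMM factors, the quasi-likelihood F-test on all 8 libraries, and Benjamini-Hochberg adjustment over the 20093 genes tested. Standard errors were derived from the F statistic. DESeq2 1.42.0 and limma-voom (limma 3.58.1), other scalings and filters, each library left out and the replicate number as a block were alternatives. The fits were tested on simulated data. At 15626620 counts, 1 CPM rests on about 16 reads. Relative levels used log2 CPM with a prior count of 2. No pair of libraries of a diet looked like 1 library deposited again: their chi-square per gene was at least 20.1. Coordinates, exon lengths, overlaps and shared 50-base stretches came from GENCODE M21 (GRCm38), in which all 41 genes matched, and promoters from RefSeq (GRCm38.p6).

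Members, lists and tests were chosen with earlier results of these data known. Values by library were given for members that were called, had the lowest p or highest mean of their role, or the 3 largest or smallest log2 fold changes of their class, and for outlying members. From each pathway list the 2 genes with the lowest p were named, except that 1 gene of the receptor and kinase list, and the counts over that list, are not reported here. Ube2l6, Ifng, Ifnb1, Ifna13, Myh6, Tnnt2, Pln, Lyz2, Cd163, Siglech, Cox6a2, Flt1, Csf3r, Retnlg, S100a8 and S100a9 were named after their values were seen. The same holds for Gbp4, Gbp6, Gbp8, Gbp10 and Gbp11.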

Additional observations from a re-analysis of the deposited data

Results flagged for a closer look

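In 15 of 82 groups of 4 libraries, 1 library lay far from the other 3 on the log2 scale (Dixon's test at the 95% level), where chance flags about 1 in 20. Adenine 3 was the high library in Irf7 (20.7 CPM, others 7.4 to 8.2), Ifit2 (23.3 CPM, others 11.4 to 11.8), Ifit3 (18.4 CPM, others 6.39 to 7.34), Oas1a (11.8 CPM, others 3.29 to 4.04), Mx1 (4.46 CPM, others 0.76 to 0.86), Samhd1 (47.4 CPM, others 30.2 to 31.3) and Trim30a (15.5 CPM, others 7.66 to 8.6). Control 2 was the low library in Oas1a (2.44 CPM, others 5.07 to 5.64), Oas2 (5.76 CPM, others 8.26 to 8.83), Trim30a (8.23 CPM, others 11 to 11.4) and Gbp5 (6.33 CPM, others 9.31 to 9.87). The remaining cases were Ifi35 in adenine 2 (13.6 CPM, others 21.6 to 22), Gbp2 in control 1 (16.9 CPM, others 13.7 to 14.2), Iigp1 in adenine 4 (20.4 CPM, others 33.9 to 36.6) and Irgm1 in control 3 (14.3 CPM, others 16 to 16.2). Genes of 1 library move together, so these are not independent cases.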

How the results depend on the processing

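The count of members called stayed at 0 in both directions, except that DESeq2's Wald test called 2 lower and that leaving out 1 library gave 0 to 2 lower, with 2 only without adenine 3. Over the whole table, where edgeR called 8 genes higher and 0 lower, upper-quartile factors gave 18 higher and 1 lower, DESeq2's Wald test 120 and 152, limma-voom 5 higher, no filter 1 lower, and leaving out 1 library 1 to 37 higher and 0 to 30 lower. The replicate block gave 16 higher and 16 lower genes and 0 members. Deviations of same-numbered libraries correlated at 0.09, -0.50, -0.16 and 0.30, so the numbers are not taken as pairs. Only adenine 4 correlated best with the library of its own number. Upper-quartile factors moved the median log2 fold change of all genes from 0.05 to 0.20 and that of the members from -0.18 to -0.07, and no filter moved the first to 0.17.

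The sign of the log2 fold change was the same under all 15 alternatives in 29 of the 41 members. With upper-quartile factors, the sign changed for Ifit1 at 0.008, Mx2 at 0.045, Samhd1 at 0.046 and Trim30a at 0.055. With DESeq2's Wald test, the sign changed for Stat2 at -0.038, Helz2 at -0.026 and Ifi47 at -0.004. With limma-voom, the sign changed for Irf7 at -0.033. With a filter of 1 CPM in 4 libraries, the sign changed for Trim30a at 0.006. With the replicate block, the sign changed for Irf7 at -0.099 and Ifi47 at -0.016. No member with a changed sign passed in edgeR, DESeq2 or limma-voom, and the cause was not tested. Leaving out 1 library, the log2 fold change ran from -0.49 to 0.21 in Irf7, ran from -0.090 to 0.099 in Stat2, ran from -0.061 to 0.30 in Usp18, ran from -0.095 to 0.16 in Helz2, ran from -0.24 to 0.15 in Ifi47, ran from -0.76 to 0.14 in Ifit1, ran from -0.30 to 0.070 in Mx2, ran from -0.37 to 0.075 in Trim30a, ran from -0.35 to 0.53 in Oas1a, ran from -0.032 to 0.37 in Oas2 and ran from -0.35 to 0.60 in Ifi44. With 4 libraries per diet and a common coefficient of variation of 0.293, differences as small as most of these are not resolved, and Mx1, Zbp1, Isg15, Ifi47 and Mx2, with fewer than 50 reads in at least 1 library, carry counting error as well.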

Other observations

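Transcripts of lymphocytes and interferon ligands, all with few reads, took a different order over the libraries than the interferon-stimulated genes. 13 T and NK cell markers summed to 6.64 to 13.9 CPM in the controls and to 12.3, 23.1, 8.02 and 17.9 CPM in adenine 1 to adenine 4. 4 B cell markers summed to 4.17 to 7.38 CPM in the controls and to 7.0, 12.2, 4.93 and 10.9 CPM in the adenine libraries. The 21 ligand genes had 5.24, 11.3, 3.53 and 7.55 CPM in the adenine libraries. In all 3 sums adenine 2 was the highest and adenine 3 the lowest adenine library, where adenine 3 was the highest for 34 of the 41 interferon-stimulated genes. Adenine 2 was also the shallowest library and the highest adenine library for 42.7% of all genes tested.

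7 neutrophil markers, all but Csf3r with at most 51 reads in any library, summed to 3.52 to 6.86 CPM in the controls and 8.22 to 13.6 CPM in the adenine libraries. S100a8 and S100a9 overlapped between the diets, and S100a8 in adenine 4, at 0.187 CPM, lay below every control. The sums did not overlap, and 3 of the 7 single markers, Retnlg among them, had no overlap between the diets (42.9%, against 3.45% of all genes). Csf3r, the receptor for granulocyte colony-stimulating factor, had 3.48, 2.03, 3.84 and 3.29 CPM in the controls, and 4.44, 5.26, 8.69 and 4.56 CPM in the adenine libraries, the largest part of the sum in every library. 0 of the 7 were called in edgeR or DESeq2, and 3, Retnlg again among them, were higher at an unadjusted p under 0.05 (42.9%, against 10.9% of all genes). With few reads, a marker can pass the filter through the diet in which it is higher. Retnlg may have done so, with 12, 6, 7 and 3 reads in the controls and 15, 11, 20 and 17 in the adenine libraries. These shares are thus no result about the neutrophil markers.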
